A study of Mus musculus with 35 samples.

Results

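The serum amyloid A (SAA) genes Saa1, Saa2, Saa3 and Saa4 were followed in the livers of mice given silica particles. The platform annotation gave these 4 symbols 6 probe sets, each named for 1 gene and none for several, and all 4 genes are among the 12678 genes tested across the array. A gene was read from its probe set with the highest mean signal, which was 1450788_at for Saa1, 1449326_x_at for Saa2, 1450826_a_at for Saa3 and 1419318_at for Saa4. The remaining probe sets, 1419075_s_at (Saa1) and 1419319_at (Saa4), are given beside them. All 4 genes lay above the filter on low values on all 35 arrays.

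The study measured total RNA of the left lateral liver lobe of BALB/c mice, a white inbred laboratory strain, 6 h after 1 injection into a vein, with 1 array for each of 35 mice. The 5 control mice had received deionized water, the vehicle. The treated mice, 5 to a group, had received silica particles named SP70 at 10, 20 or 40 mg/kg, SP30 at 10 mg/kg, or SP300 at 10 or 200 mg/kg. The SP70 groups make up a dose series. Particle sizes were compared with every mouse at 10 mg/kg, and again at the doses the study calls toxic, 10 (SP30), 40 (SP70) and 200 (SP300) mg/kg. The labels give no genotype or age, and no cage, litter or scan date.

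SAA proteins are small apolipoproteins that liver cells release into blood during the acute phase response, the change in plasma proteins that follows infection or injury, and that then travel on high-density lipoprotein (HDL). Saa1 and Saa2 encode the main acute phase forms of liver, while Saa3 is made by hepatocytes as well as by macrophages, fat cells and other tissues, and Saa4 is known as the constitutive form. Transcription of the inducible genes is driven by interleukin 1, tumour necrosis factor and interleukin 6 family cytokines through NF-kB, C/EBP and STAT3. The 4 genes lie side by side on 1 chromosome, in the order Saa3, Saa4, Saa1, Saa2 in the RefSeq gene table, with a long noncoding RNA gene (Gm31882) between Saa3 and Saa4 and the pseudogene Saa-ps between Saa4 and Saa1.

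The promoter sequences show how alike the members are, and are given here because Saa1 and Saa2 are hard to tell apart on an array. Each is the 250 bases before the gene's start from RefSeq (build GRCm38.p6), 5′ to 3′ in the gene's direction, with matches to the searched motifs in capitals. The windows are chr7:46742981-46743230 (minus strand) for Saa1, chr7:46751583-46751832 (plus strand) for Saa2, chr7:46715677-46715926 (minus strand) for Saa3 and chr7:46732604-46732853 (minus strand) for Saa4.
Saa1: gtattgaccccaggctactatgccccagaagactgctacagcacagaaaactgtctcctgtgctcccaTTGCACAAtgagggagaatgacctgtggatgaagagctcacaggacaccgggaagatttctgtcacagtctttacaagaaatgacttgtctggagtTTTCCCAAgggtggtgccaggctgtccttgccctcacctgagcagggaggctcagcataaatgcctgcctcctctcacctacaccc
Saa2: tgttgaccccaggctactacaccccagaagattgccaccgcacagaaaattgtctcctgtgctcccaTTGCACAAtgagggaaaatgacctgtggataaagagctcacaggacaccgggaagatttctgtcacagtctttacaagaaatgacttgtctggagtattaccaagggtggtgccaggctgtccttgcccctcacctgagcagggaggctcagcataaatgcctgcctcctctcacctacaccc
Saa3: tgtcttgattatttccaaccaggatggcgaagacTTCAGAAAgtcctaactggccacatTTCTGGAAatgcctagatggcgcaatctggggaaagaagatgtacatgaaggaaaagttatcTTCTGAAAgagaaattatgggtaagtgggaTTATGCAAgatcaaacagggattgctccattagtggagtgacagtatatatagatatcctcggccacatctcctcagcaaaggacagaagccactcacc
Saa4: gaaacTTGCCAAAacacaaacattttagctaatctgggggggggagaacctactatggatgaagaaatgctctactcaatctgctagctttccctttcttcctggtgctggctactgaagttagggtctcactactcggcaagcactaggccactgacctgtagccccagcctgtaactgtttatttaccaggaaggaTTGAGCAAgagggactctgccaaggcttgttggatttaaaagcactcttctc

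After global alignment, the Saa1 and Saa2 windows were identical at 94.8% of 251 aligned columns, with 11 mismatches and 2 gaps. The other 5 pairs of windows were identical at 43.8% to 48.5% of columns. The search covered both strands for the C/EBP motif TTNNGNAA, the TATA box TATAAA, the STAT motif TTCNNNGAA and the NF-kB consensus by name, and a C/EBP and a STAT match can share bases. Every capital stretch printed above is a C/EBP match: 4 in Saa3, 2 each in Saa1 and Saa4, and 1 in Saa2. The 4 of Saa3 and the later one of Saa4 read in the gene's direction, and the others match on the opposite strand. Saa1 and Saa2 share the match TTGCACAA, and the second Saa1 match, TTTCCCAA, is absent from the Saa2 window. Such a match is common, since 36.8% of all 32851 promoter windows of this length hold at least 1. The STAT and TATA box letters, held by 7.02% and 12.4% of all windows, are not in these 4. The NF-kB consensus as searched, held by 3.90% of windows, had no match either, and its letters are not given here. Looser forms of these motifs were not searched, so the windows can still hold a looser site.

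The probe sets carry the same limit as the promoters. A suffix of _s_at marks a probe set whose probes match several transcripts, _x_at one with some probes shared with other sequences, and _a_at one that matches alternative transcripts of 1 gene. The Saa1 probe set 1419075_s_at is assigned to Saa1 by its gene identifier, but the transcript it was designed from is Saa2's in RefSeq. Signals of Saa1 and Saa2 can therefore include RNA of the other gene, and their separate values are uncertain to that extent. Whole-liver RNA also cannot tell fewer cells of a type from less RNA in each cell.

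SAA transcripts rose in 5 of the 6 treated groups and did so unequally. Saa3, Saa2 and Saa1 rose steeply and Saa4 rose by a small amount in the 3 SP70 groups, with SP30 at 10 mg/kg and with SP300 at 200 mg/kg. With SP300 at 10 mg/kg none of the 4 passed the test. All 4 genes were called higher than control, at an adjusted p under 0.05 in the limma fit over all genes, in each of the 5 groups. Of all genes tested the calls, in either direction, were 18.2% with SP70 at 10 mg/kg, 39.7% at 20 mg/kg and 44.4% at 40 mg/kg, 49.3% with SP30 and 30.6% with SP300 at 200 mg/kg. With SP300 at 10 mg/kg it was 1.17% of all genes and 0 of the 4 members. At an unadjusted p under 0.05 in the limma fit, Saa1 alone of the 4 passed there, where its adjusted p was 0.314.

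**Figure D1:**
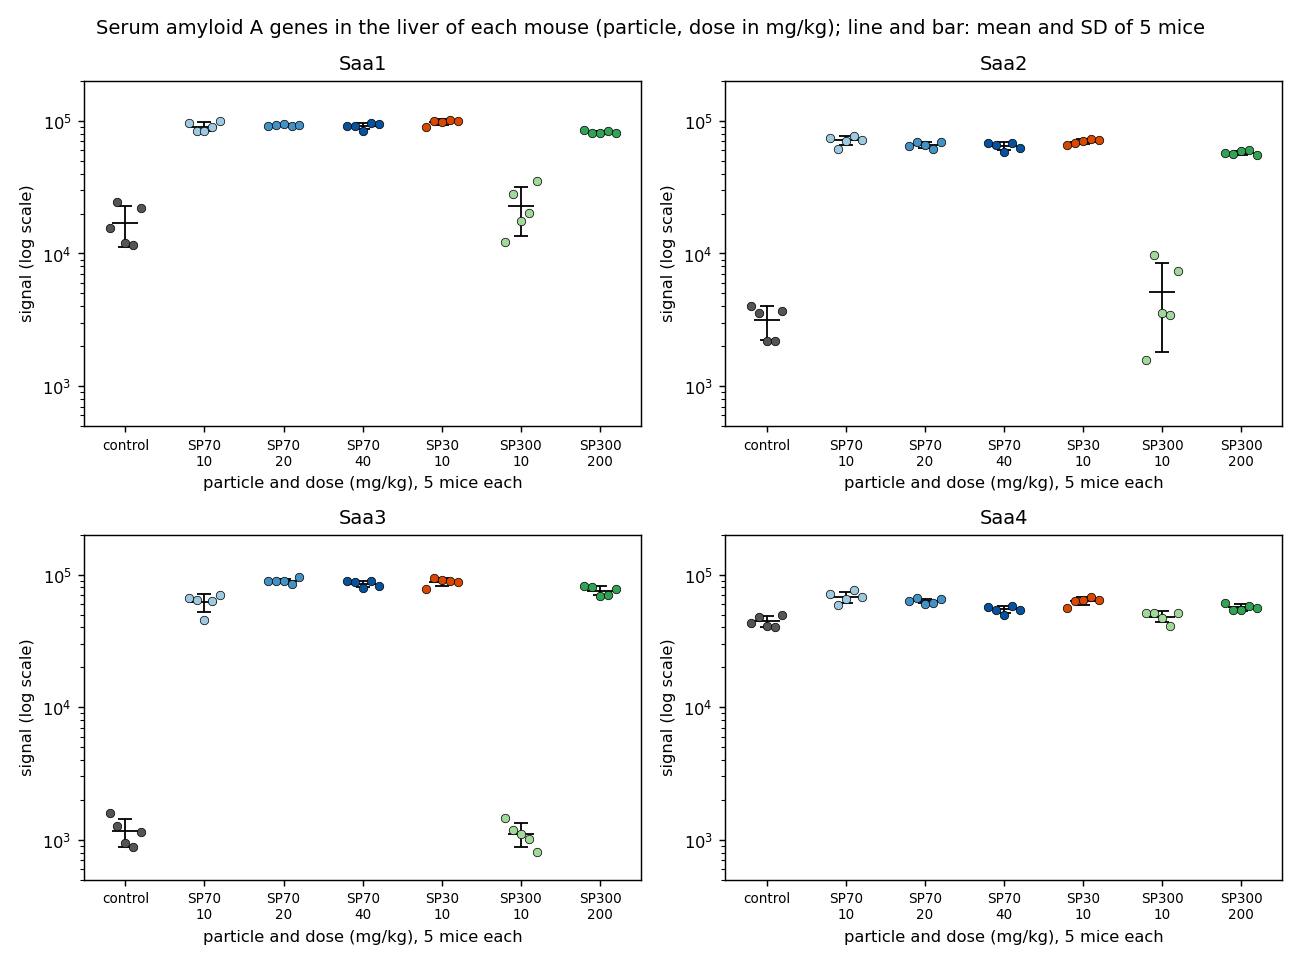
Signal of Saa1, Saa2, Saa3 and Saa4 in each of 35 mice on a logarithmic axis, by group (particle and dose in mg/kg). Points are mice, the horizontal line and bar are the mean and SD of 5 mice. For Saa1, Saa2 and Saa3 the control mice and the mice given SP300 at 10 mg/kg lie below all others, and for Saa4 the groups lie close together.

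Saa3 had the widest range. Its signal in the control mice was 1578, 1280, 949, 884 and 1139, a mean of 1166 ± 278 (SD, n = 5). After SP70 at 10 mg/kg it was 66480, 64153, 45270, 62968 and 69969, a mean of 61768 ± 9602 (SD, n = 5). One mouse of this group lay below the other 4, and all 5 lay far above every control mouse. For this and the other members, the share of all genes with such a separation from control was not counted.

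At 20 mg/kg of SP70 the Saa3 signal was 88753, 89220, 89670, 84926 and 95211, and at 40 mg/kg it was 89017, 88070, 79725, 89289 and 82237. SP30 at 10 mg/kg gave 77565, 94105, 90561, 88844 and 88330. SP300 at 200 mg/kg gave 81843, 80834, 68768, 69971 and 77783. All 20 lay above every control mouse.

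The log2 difference of Saa3 from control was 5.73 with SP70 at 10 mg/kg, 6.28 at 20 mg/kg and 6.21 at 40 mg/kg (SE 0.12 for each), which is a ratio of geometric means of 53.6, 78.5 and 75.0. SP30 gave 6.25 and SP300 at 200 mg/kg 6.04. The largest adjusted p of these 5 comparisons was 1.16e-28 (limma). By log2 difference from control, Saa3 ranked first of 12678 genes with SP70 at 20 mg/kg and with SP300 at 200 mg/kg, and stood at rank 2 with SP70 at 10 mg/kg, rank 4 at 40 mg/kg and rank 6 with SP30.

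With SP300 at 10 mg/kg the Saa3 signal was 1447, 1176, 1107, 1014 and 804, a mean of 1110 ± 235 (SD, n = 5), and 4 of these mice lay within the control range. The log2 difference was -0.065 (95% interval -0.31 to 0.18, adjusted p = 0.87).

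Saa2, the second inducible liver gene, measured 4031, 3578, 2180, 2173 and 3650 in the control mice, a mean of 3123 ± 881 (SD, n = 5). SP70 at 10 mg/kg gave 74241, 61751, 70863, 77475 and 71916, a mean of 71249 ± 5885. All 5 were above every control mouse.

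SP70 at 20 mg/kg gave Saa2 signals of 64389, 68842, 65749, 61904 and 68887, and 40 mg/kg gave 68054, 65288, 57998, 68637 and 62064. SP30 gave 66152, 67619, 70201, 73676 and 71842. SP300 at 200 mg/kg gave 57729, 55971, 59186, 60297 and 55385, the lowest of the 5 raised groups. The log2 differences from control were 4.55, 4.44 and 4.41 along the SP70 doses, 4.53 with SP30 and 4.25 with SP300 at 200 mg/kg (SE 0.25), which are ratios of geometric means between 19.1 and 23.6. The adjusted p was at most 1.29e-15 in these 5 comparisons.

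Mice given SP300 at 10 mg/kg spread widely in Saa2. Their signals were 1569, 9775, 3560, 3447 and 7326, a mean of 5135 ± 3331 (SD, n = 5). Mice 2 and 5 lay above every control mouse, mouse 1 lay below every control mouse, and the other 2 lay within the control range. The log2 difference from control was 0.49 (95% interval -0.0085 to 0.99, adjusted p = 0.365). Without mouse 1 it was 0.85 with an adjusted p of 0.018, so this mouse decides whether Saa2 passes. Over the 10 fits that left out 1 mouse of either group, the difference ran from 0.19 to 0.85.

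Saa1, the other main acute phase form, rose less than Saa2. The control mice measured 15615, 24379, 11971, 11503 and 22073, a mean of 17108 ± 5864 (SD, n = 5). SP70 gave 95752, 84151, 84661, 89354 and 99921 at 10 mg/kg, then 91859, 93624, 94519, 92098 and 93486 at 20 mg/kg. Both groups lay wholly above control, and the 5 mice at 20 mg/kg differed by a factor of only 1.03 between highest and lowest.

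SP70 at 40 mg/kg gave Saa1 signals of 91297, 92348, 84190, 96615 and 94940, SP30 gave 89537, 99720, 97476, 101789 and 100260, and SP300 at 200 mg/kg gave 85280, 80494, 81551, 83860 and 80456. The log2 differences from control were 2.47, 2.51 and 2.49 along the SP70 doses, 2.58 with SP30 and 2.33 with SP300 at 200 mg/kg (SE 0.17), that is ratios of 5.04 to 5.98. The adjusted p was at most 8.74e-13. The other probe set gave log2 differences of 2.74, 2.66, 2.61, 2.70 and 2.46 in the same order.

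Mice given SP300 at 10 mg/kg had Saa1 signals of 12125, 28340, 17653, 20073 and 35322, a mean of 22703 ± 9156 (SD, n = 5). The same mice 2 and 5 as for Saa2 were above every control mouse and mouse 1 was again the lowest of the group, though within the control range. The log2 difference was 0.38 (95% interval 0.026 to 0.73), which did not pass after adjustment (adjusted p = 0.314).

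Saa4, the form known as constitutive, changed least. Its control mice measured 43455, 48256, 41201, 39923 and 49604, a mean of 44488 ± 4274 (SD, n = 5). SP70 at 10 mg/kg gave 71030, 59177, 65566, 76634 and 67951, and 20 mg/kg gave 63779, 66085, 59912, 61265 and 65403. SP70 at 40 mg/kg gave 56726, 54429, 49759, 58492 and 54152, and all 15 mice lay above every control mouse.

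SP30 gave Saa4 signals of 55646, 62779, 64231, 67626 and 64814, and SP300 at 200 mg/kg gave 61505, 53781, 54565, 57847 and 55559. On this probe set none of these 10 mice overlapped with control, a separation whose share over all genes was not counted. The log2 differences from control were 0.61, 0.51 and 0.30 along the SP70 doses, 0.50 with SP30 and 0.35 with SP300 at 200 mg/kg (SE 0.071). Their adjusted p-values were 2.38e-08, 3.68e-07, 6.37e-04, 2.79e-07 and 1.96e-04. SP300 at 10 mg/kg gave 51540, 51175, 46742, 41153 and 50970, a log2 difference of 0.12 (95% interval -0.024 to 0.26, adjusted p = 0.464).

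The dimmer Saa4 probe set gave the same order of group means and larger changes. On 1419319_at the control mice ran from 13407 to 22776 (mean 18212 ± 4164, SD, n = 5) and the SP70 mice from 43030 to 46331 at 10 mg/kg. The log2 differences from control were 1.30, 1.08 and 0.67 along the SP70 doses, 1.04 with SP30 and 0.76 with SP300 at 200 mg/kg (SE 0.15), against 0.61, 0.51, 0.30, 0.50 and 0.35 on the brighter one. The ratio of the dimmer to the brighter probe set was 0.407 ± 0.066 in control and 0.649 ± 0.050 with SP70 at 10 mg/kg (SD, n = 5). The size of the Saa4 change therefore depends on the probe set, while its direction and its calls against control do not. On the dimmer one, 1 mouse given SP300 at 200 mg/kg (22377) lay within the control range.

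**Figure D2:**
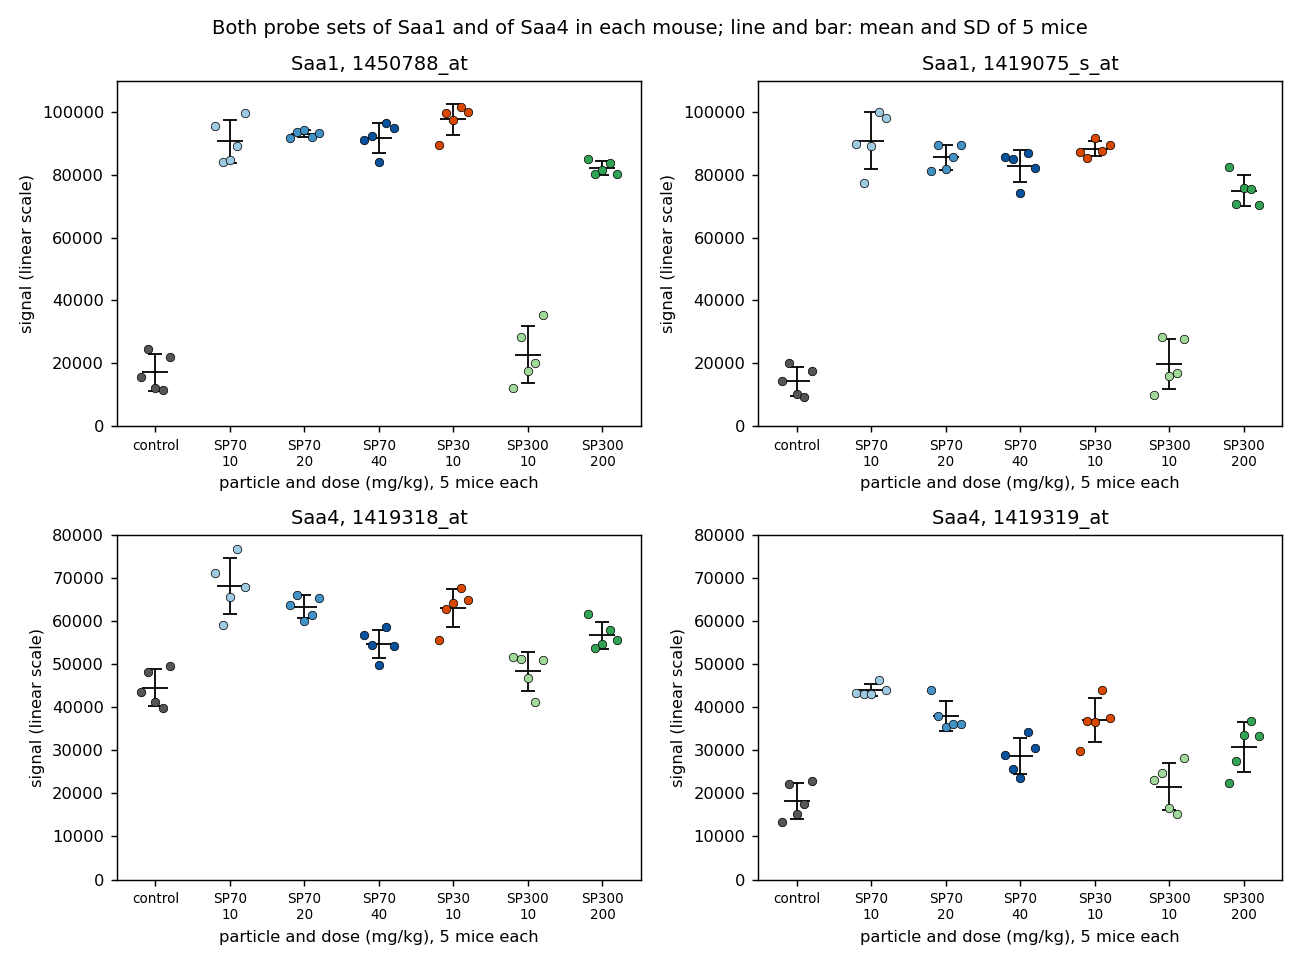
Signal of both probe sets of Saa1 (upper row) and of Saa4 (lower row) in each mouse on linear axes that start at 0, by group (particle and dose in mg/kg); lines and bars are the mean and SD of 5 mice. The Saa1 probe sets show the same step from control, and both Saa4 probe sets fall from 10 to 40 mg/kg of SP70.

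The raised SAA signals were among the brightest on their arrays. In the 5 raised groups (25 arrays), Saa1 signals were 66.0% to 92.7% of the brightest probe set of their own array and stood at ranks 5 to 33 of the array. The ranges were 48.4% to 67.0% for Saa2, 35.3% to 87.3% for Saa3 and 45.1% to 63.5% for Saa4. On the dimmer Saa4 probe set the range was 18.8% to 38.4%. The table holds no calls of saturation, and whether signals in this range still rise in proportion to RNA was not tested.

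The spread between mice also differed with the level. The SD of log2 signal for Saa2 was 0.43 in control and 1.03 with SP300 at 10 mg/kg, against 0.052 to 0.12 in the 5 raised groups. For Saa1 the corresponding values were 0.50 and 0.60, against 0.017 to 0.11. The fit uses 1 spread for all 7 groups, so for Saa1 and Saa2 its SE among the raised groups rests largely on the 2 groups with low signal.

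**Figure D3:**
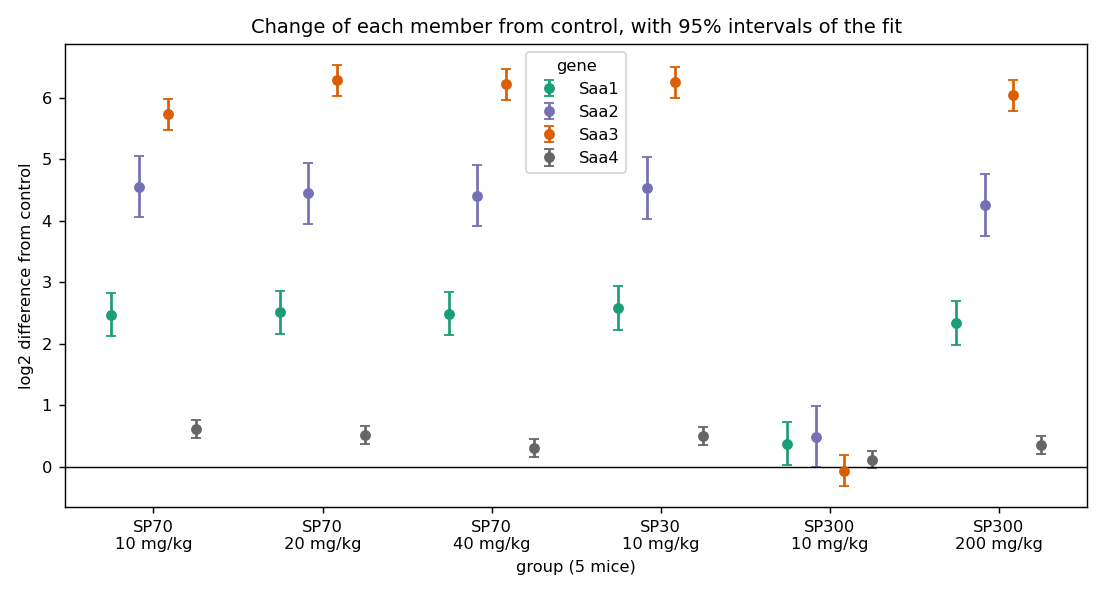
Log2 difference from control of Saa1, Saa2, Saa3 and Saa4 in each of 6 treated groups, with 95% intervals of the limma fit (5 mice a group). In 5 groups Saa3 lies highest, then Saa2, Saa1 and Saa4, with SP70 at 20 mg/kg at 6.28, 4.44, 2.51 and 0.51, and in SP300 at 10 mg/kg the 4 lie between -0.065 and 0.49.

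The signals of the members changed by unequal amounts. The difference in log2 change between 2 members was tested on each mouse's own difference between the genes, treated against control, by an exact two-sided permutation test over all divisions of the 10 mice, for 6 pairs of genes in 6 groups. In the 5 raised groups, all 6 pairs in each group gave the smallest p this exact test allows (p = 0.00794, adjusted over 36 tests to 0.00952). The log2 change of Saa2 minus that of Saa3 was -1.18 ± 0.15 (SE) with SP70 at 10 mg/kg and lay between -1.83 and -1.72 in the other 4 groups. Saa1 minus Saa2 lay between -2.08 and -1.92, a difference measured with probe sets that may share signal. Saa1 minus Saa4 was 1.86 to 2.19 on the brighter Saa4 probe set. On the dimmer one, taken up after seeing the data, it was 1.17 ± 0.16 (SE) with SP70 at 10 mg/kg and 1.43 to 1.82 in the other 4 groups, with the same p-values. With SP300 at 10 mg/kg no pair passed (adjusted p 0.332 to 0.675, exact permutation test). All of these comparisons use the same 5 control mice. The members also began at unequal control means, 44488 for Saa4, 17108 for Saa1, 3123 for Saa2 and 1166 for Saa3. Raised signals were among the brightest of the array, and the part of an upper limit of the signal in the unequal changes was not tested.

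Along the SP70 dose series, Saa3 and Saa4 moved and Saa1 and Saa2 did not pass. Saa3 was higher at 20 than at 10 mg/kg, by 0.55 ± 0.12 on the log2 scale (SE, adjusted p = 0.00188). From 20 to 40 mg/kg its difference was -0.065 (95% interval -0.31 to 0.19, adjusted p = 0.787). In the comparison of 20 with 10 mg/kg, 1 of the 4 members and 17.0% of all genes were called. Without the low mouse at 45270 the difference was 0.44 (adjusted p = 0.0134), the highest adjusted p among the alternatives run.

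Saa4 moved the other way at the top of the series. It was lower at 40 than at 10 mg/kg by 0.31 ± 0.07 (SE, adjusted p = 8.51e-04), and on the dimmer probe set by 0.63 ± 0.15 (SE, adjusted p = 0.0015). With quantile normalization the first of these was -0.16 and no longer passed (adjusted p = 0.0561). The median of all genes was -0.13 between these doses on the deposited values and 0.0031 after quantile normalization, and relative to it Saa4 was -0.18 and -0.16. In this comparison 30.5% of all genes and 2 members were called, Saa3 upward and Saa4 downward. Between 20 and 40 mg/kg Saa4 fell by 0.21 (adjusted p = 0.0461), where 11.5% of all genes were called, and this call was lost in 8 of the 10 fits that left out 1 mouse, the exceptions being those without mouse 1 or mouse 4 of the 40 mg/kg group. The summed signal of 9 Kupffer cell markers, a measure of the resident liver macrophages, had a median of 8822, 1650 and 565 at the 3 doses, and its part in the Saa3 and Saa4 differences was not tested.

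Saa1 and Saa2 did not pass the test between 40 and 10 mg/kg. Between 40 and 10 mg/kg the log2 difference was 0.019 for Saa1 (95% interval -0.33 to 0.37, adjusted p = 0.95) and -0.14 for Saa2 (95% interval -0.65 to 0.36, adjusted p = 0.707). These intervals leave room for a change in either direction. At the SP70 doses Saa1, Saa2 and Saa3 were among the brightest signals of their arrays. The part of an upper limit of the signal in these dose results was not tested.

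At 10 mg/kg, the SP30 and SP70 groups lay apart from SP300 in all 4 members. All 4 members were higher with SP30 than with SP300, by 6.31 for Saa3, 4.04 for Saa2, 2.20 for Saa1 and 0.39 for Saa4 on the log2 scale. Here 51.8% of all genes were called. SP70 exceeded SP300 in the same way, by 5.79, 4.06, 2.09 and 0.49, with 20.6% of all genes called. The largest adjusted p of these 8 differences was 2.16e-05, that of Saa4 between SP30 and SP300.

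Between SP30 and SP70 at 10 mg/kg, Saa3 passed the test and Saa1, Saa2 and Saa4 did not. Saa3 was higher with SP30 by 0.52 ± 0.12 (SE, adjusted p = 0.0014), where 29.0% of all genes were called. The differences were 0.11 for Saa1 (95% interval -0.24 to 0.46), -0.025 for Saa2 (-0.53 to 0.48) and -0.11 for Saa4 (-0.25 to 0.034), and none passed.

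At the doses the study calls toxic, no member passed in any of the 3 comparisons, in which 5.70% (SP30 against SP70), 29.2% (SP30 against SP300) and 15.5% (SP70 against SP300) of all genes were called. Saa1 was higher in every SP30 mouse than in every SP300 mouse (0.25 on the log2 scale, adjusted p = 0.308), and so was Saa2 (0.28, adjusted p = 0.436), as were 8.09% of all genes. A fit of only these 2 groups, whose spread is small, called Saa1 (adjusted p = 0.00276), Saa2 (adjusted p = 0.00157) and Saa3 (0.21, adjusted p = 0.0328) higher with SP30. At an unadjusted p under 0.05 in the limma fit over all groups, Saa4 passed for SP30 over SP70 (0.20, adjusted p = 0.0866) and for SP30 over SP300 (0.15, adjusted p = 0.103). Both passed after adjustment without mouse 1 of the SP30 group, at 0.25 (adjusted p = 0.0311) and 0.20 (adjusted p = 0.0426). For SP30 over SP70 the interval of the other members was -0.26 to 0.44 for Saa1, -0.38 to 0.62 for Saa2 and -0.21 to 0.28 for Saa3.

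Between the doses of SP300, 200 and 10 mg/kg, all 4 members were higher at 200 mg/kg, by 6.10 for Saa3, 3.76 for Saa2, 1.95 for Saa1 and 0.23 for Saa4 (adjusted p = 0.0104 for Saa4, and at most 8.4e-11 for the others), with 31.7% of all genes called. For Saa4 the call was lost without mouse 4 of the 10 mg/kg group (adjusted p = 0.0525).

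The order of the 7 group means differed between genes. Saa1 was highest with SP30 (97756 ± 4848, SD, n = 5), followed by SP70 at 20, 40 and 10 mg/kg, then SP300 at 200 (82328 ± 2153) and at 10 mg/kg and control. For Saa2 the order was SP70 at 10 mg/kg, SP30, SP70 at 20 and 40 mg/kg, then SP300 at 200 (57714 ± 2079) and at 10 mg/kg and control. In both genes the only neighbours that differed in the fit were the 2 SP300 doses. For Saa3 the order was SP70 at 20 mg/kg, SP30, SP70 at 40 mg/kg, the higher SP300 dose, SP70 at 10 mg/kg, control and SP300 at 10 mg/kg, and only SP70 at 10 mg/kg and control differed as neighbours. For Saa4 it was SP70 at 10 and 20 mg/kg, SP30, the higher SP300 dose, SP70 at 40 mg/kg, the lower SP300 dose and control, and only SP70 at 40 mg/kg and SP300 at 10 mg/kg differed as neighbours (0.18, adjusted p = 0.0322, with 47.2% of all genes called).

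Signals of several SAA genes went together among mice of the same group. Deviations of log2 signal from the group mean were correlated for the 6 pairs of members, with permutation p-values from 100000 permutations within groups. Over all 35 mice, Saa1 and Saa2 had a Pearson r of 0.853 (p = 0.0037, adjusted p = 0.0222) and a Spearman rho of 0.740 (p = 2.4e-04, adjusted p = 7.2e-04), and r was 0.739 without the 2 mice farthest from the median of Saa1. Saa4 passed by rho with Saa1 (0.669, permutation adjusted p = 8.4e-04), Saa2 (0.703, adjusted p = 7.2e-04) and Saa3 (0.436, adjusted p = 0.0412), but not by r (0.434, 0.324 and 0.347, with adjusted p-values of 0.182, 0.282 and 0.261). After quantile normalization none of the 6 pairs passed by rho over 35 mice (lowest permutation adjusted p = 0.067). The 10 mice of the control group and of SP300 at 10 mg/kg were also examined alone, a split made after seeing the data. In them Saa1 and Saa2 had an r of 0.862 (p = 0.00486, adjusted p = 0.0292), rho was 0.842 (p = 0.00797, adjusted p = 0.0478) and r without the 2 farthest mice was 0.754. The probe sets may share signal, and its part in this relation was not tested.

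Saa3 and Saa1 did not pass over all 35 mice. There r was -0.068 (p = 0.824, adjusted p = 0.824) and rho was 0.270 (p = 0.215, adjusted p = 0.215), and r was 0.495 without the 2 farthest mice, so the low r rests on those mice. These were mice 1 and 5 of SP300 at 10 mg/kg, the mouse with the lowest Saa1 and highest Saa3 of its group and the mouse with the highest Saa1 and lowest Saa3.

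In the 25 mice of the raised groups, the rest of the split made after seeing the data, Saa1 and Saa3 passed. Here r was 0.586 (permutation p = 0.0128, adjusted p = 0.0201), rho was 0.469 (adjusted p = 0.0481) and r was 0.457 without the 2 farthest mice. With arrays centred on their medians r was 0.532 (permutation adjusted p = 0.0249), and after quantile normalization 0.433 (adjusted p = 0.263).

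In these mice other relations also depended on the scaling of the arrays. Saa1 and Saa2 had r = 0.594 (permutation p = 0.0134, adjusted p = 0.0201; rho 0.528) on the deposited values and r = -0.619 (permutation p = 0.0281, adjusted p = 0.169; rho -0.566) after quantile normalization, against 0.789 (adjusted p = 2.2e-04) with centring. Saa2 and Saa4 had r = 0.842 (permutation p = 1e-05, the smallest the permutations can give, adjusted p = 6e-05; rho 0.808) on the deposited values and 0.388 (permutation p = 0.21, adjusted p = 0.263; rho 0.231) after quantile normalization, against 0.902 (adjusted p = 6e-05) with centring. Saa1 and Saa4 had r = 0.661 (permutation adjusted p = 0.0171), -0.512 (adjusted p = 0.263) and 0.798 (adjusted p = 1.8e-04) on these 3 scalings. In the 10 mice with low signals, Saa1 and Saa2 kept r = 0.860 after quantile normalization.

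**Figure D4:**
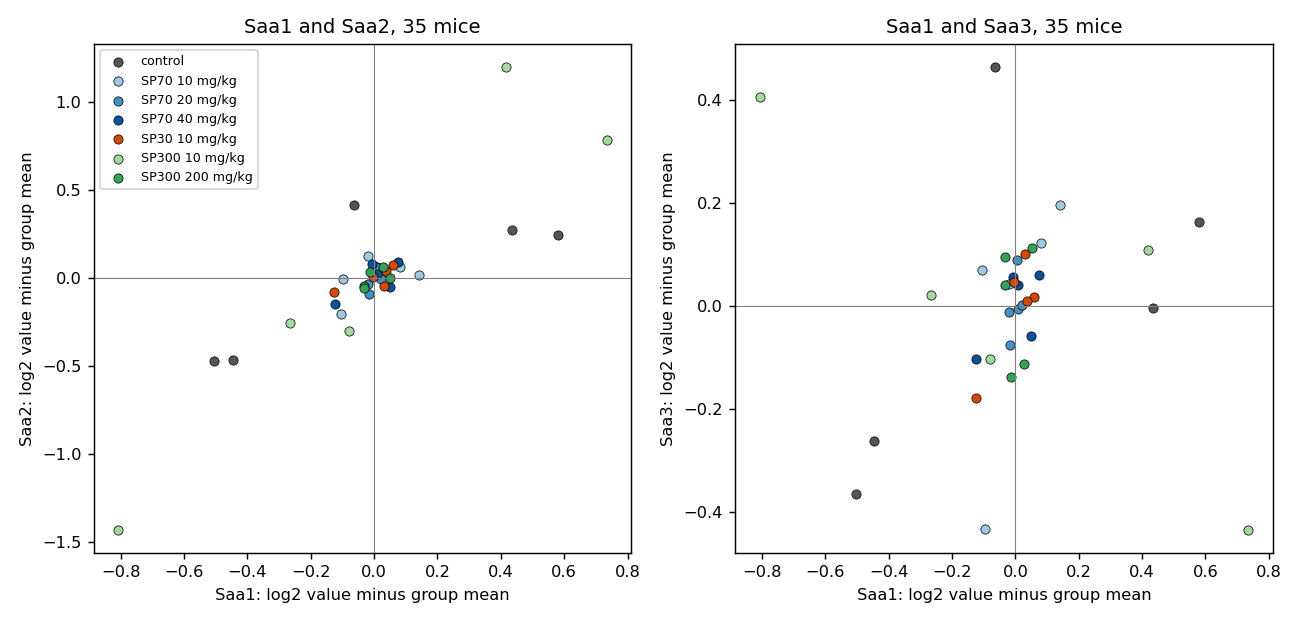
Deviation of log2 signal from the group mean for Saa1 against Saa2 (left) and against Saa3 (right), 1 point for each of 35 mice, coloured by group. The mice of control and of SP300 at 10 mg/kg spread widely and rise together for Saa1 and Saa2 (r = 0.862 in these 10 mice), and the other 25 mice lie close to 0.

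The genes whose pattern over the 7 group means was most like a member's were found by the root mean square difference of centred log2 means. For Saa1 they were Zfp9 (0.15), Esm1 (0.19), St6gal1 (0.19), AA467197 (0.20) and Gbp7 (0.24). St6gal1, a sialyltransferase of liver that is itself released as an acute phase enzyme, was 1.89 to 2.26 above control in the 5 raised groups and 0.34 above with SP300 at 10 mg/kg (adjusted p = 0.215). For Saa2 they were Orm2 (0.19), Ikbke (0.22), Lcn2 (0.30), Chil3 (0.33) and Gbp2b (0.37). Mean control signals of Esm1, AA467197 and Chil3 were 64.3, 5.64 and 23.3, below the filter value. Their distances depend in part on the 12.5 added to every signal, and they were kept for testing with the help of treated arrays.

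Distances to Saa3 were larger. The measure is not scaled by the size of the change, and Saa3 changed most. Distances of different members therefore do not show whose pattern is more distinct. Its closest genes were Clec4d (0.61), Cxcl1 (0.63), Cd14 (0.65), Gbp2 (0.68) and Ccl3 (0.70), farther from it than the fifth gene was from any other member. Mean control signals of Clec4d and Ccl3 were 19.4 and 16.2, below the filter value and close to the added 12.5. The distances of these 2 genes therefore depend on that constant, and both were kept for testing through treated arrays. Clec4d is a lectin receptor of myeloid cells, Cxcl1 and Ccl3 are chemokines, and Cd14 is a co-receptor for bacterial lipopolysaccharide. For Saa4 the nearest were Med28 (0.044), Mtmr14 (0.048), Cul1 (0.051), Mapre1 (0.058) and Mcoln2 (0.059), of which Mcoln2 passed in no comparison with control (lowest adjusted p = 0.184).

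Genes around SAA were described as lists by role. The median log2 difference of all genes lay between -0.12 and 0.063 in the 6 comparisons with control, which share their 5 control mice. Counts for the lists stand beside 12.5%, 18.8% and 15.6% of all genes called higher along the SP70 doses, 18% with SP30 and 12.6% with SP300 at 200 mg/kg, and 5.69%, 20.9%, 28.8%, 31.3% and 18% called lower. With SP300 at 10 mg/kg 0.923% of all genes were called higher and 0.245% lower. Of the inducing cytokines, 8 of 10 were tested. Il1b (interleukin 1 beta) and Tnf rose in all 5 raised groups, Il1b by 1.21 (SP300 at 200 mg/kg) to 3.41 (SP30) and Tnf by 1.39 to 3.06. With SP30, 6 of the 8 rose and 1 fell (median 1.28), the one being Ctf1 at -0.81. With SP70 at 10 mg/kg 2 rose and 0 fell, at 20 mg/kg 3 rose and 1 fell, at 40 mg/kg 5 rose and 2 fell, and with SP300 at 200 mg/kg 2 rose and 2 fell. Mean control signals of Tnf, Osm, Il11 and Clcf1 were 40.5, 120, 57.4 and 61.1, below the filter value. With SP30 their means were 388, 229, 246 and 179. These genes were kept for testing with the help of treated arrays, which favours a call upward in these counts. Il1a, Il1b, Lif and Ctf1 had control means above the filter value. Il6 was over the filter on 2 of 35 arrays and was not tested: its mean signal was 41.9 in control, 41.9, 35.4 and 91.1 along the SP70 doses, 179 with SP30 and 14.6 with SP300 at 200 mg/kg.

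Of 10 receptors tested for these cytokines, 6 to 8 rose and at most 1 fell in the raised groups. Il1r1, the signalling receptor of interleukin 1, rose by 1.94 to 3.23 there, and also with SP300 at 10 mg/kg (1.26, adjusted p = 0.00411). Il6ra, the receptor that binds interleukin 6, rose at SP300 10 mg/kg as well (0.75, adjusted p = 0.00855), and with SP30 it was 0.29 (adjusted p = 0.134). Those 2 of 10 receptors were called with SP300 at 10 mg/kg, beside 0.923% of all genes called higher and no SAA gene. Il1rap, the shared subunit of the interleukin 1 receptor, was the 1 that fell, by 0.21 to 0.39 in the 4 raised groups other than SP70 at 10 mg/kg.

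Of 20 signal carriers and transcription factors, 14, 13 and 12 rose along the SP70 doses, 14 with SP30, 10 with SP300 at 200 mg/kg and 0 with SP300 at 10 mg/kg, while 1, 2, 0, 1, 2 and 0 fell. Stat3, the transcription factor activated by interleukin 6 signals, rose by 0.99 to 1.43 in the raised groups. Socs3, the inhibitor that STAT3 induces, rose by 2.09 to 3.83, and Nfkbiz, an inducible NF-kB cofactor, by 2.89 to 3.87. Cebpd and Cebpb, which encode C/EBP delta and beta, rose in the SP70 and SP30 groups (Cebpd by 1.19 to 2.28, Cebpb by 0.39 to 0.71). With SP300 at 200 mg/kg neither passed, at 0.36 for Cebpd (adjusted p = 0.233) and -0.0052 for Cebpb (adjusted p = 0.976). These are RNA values, and the part of C/EBP proteins in the SAA signals was not tested.

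The other positive acute phase proteins give a scale for SAA. Of 19 tested, 15, 15 and 14 rose along the SP70 doses, 15 with SP30 and 14 with SP300 at 200 mg/kg, with medians of 0.59, 0.65, 0.60, 0.69 and 0.51, and 0 fell. Lcn2, an iron-sequestering lipocalin, rose by 5.11 to 5.30 in those groups, Orm2, an orosomucoid, by 3.89 to 4.54, and Steap4, a metalloreductase, by 2.57 to 2.93. Crp and Apcs, the pentraxins C-reactive protein and serum amyloid P, rose by 0.83 to 0.98 and by 0.51 to 0.67. Hp, haptoglobin, did not pass in any group (-0.19 to 0.10). With SP300 at 10 mg/kg 2 of the 19 rose, beside 0.923% of all genes. These were Lcn2, by 1.46 (limma adjusted p = 2.26e-04), and Lbp, the lipopolysaccharide-binding protein, by 0.50 (adjusted p = 0.0119).

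**Figure D5:**
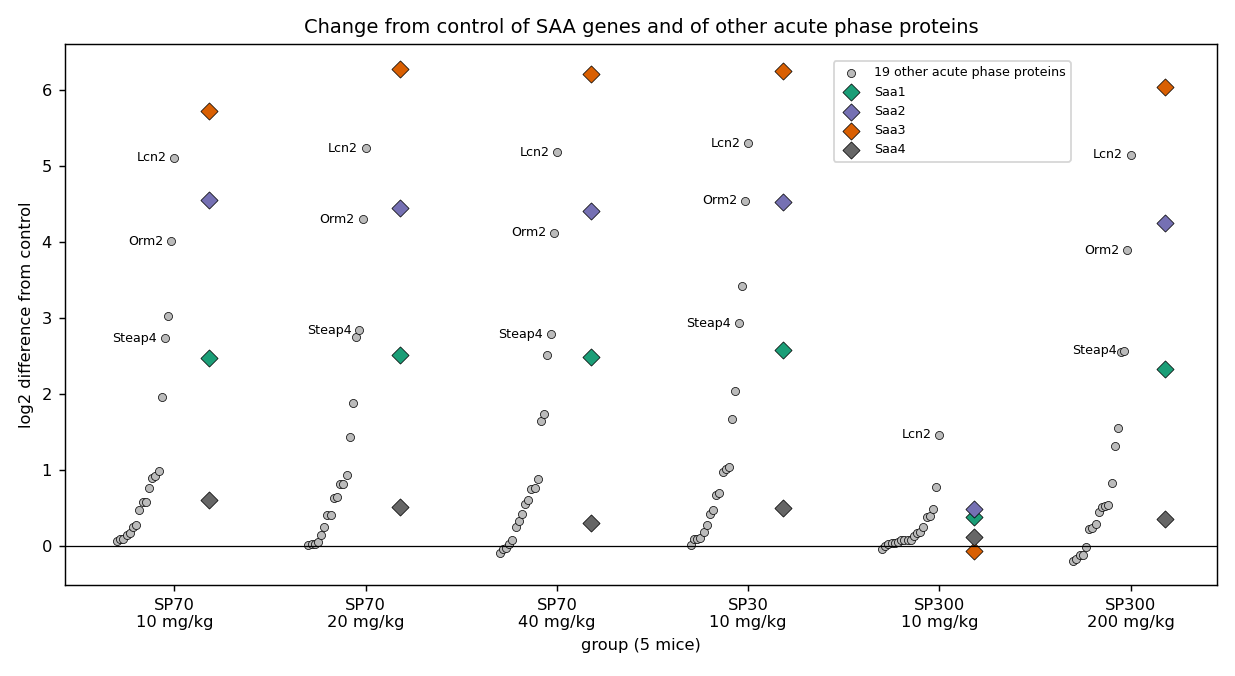
Log2 difference from control of the 4 SAA genes (diamonds) and of 19 other acute phase proteins (grey points, sorted within each group) for each of 6 treated groups. Saa3 lies above all 19 in the 5 raised groups, Saa4 lies above 6 to 10 of them there, and with SP300 at 10 mg/kg Lcn2 stands highest at 1.46.

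Carriers and receptors of SAA protein were measured too. Of 13 genes of HDL proteins and HDL metabolism, 1 rose and 1 fell with SP70 at 10 mg/kg, 1 and 2 at 20 mg/kg, 2 and 4 at 40 mg/kg, 1 and 3 with SP30, and 2 and 7 with SP300 at 200 mg/kg, while 18.2%, 39.7%, 44.4%, 49.3% and 30.6% of all genes were called in either direction. The one that rose in each of these groups was Abca1, the transporter that loads lipid onto apolipoproteins, by 0.60 to 1.36. Apoa1, the main protein of HDL, fell by 0.19 with SP300 at 200 mg/kg (adjusted p = 0.0197) and was -0.11 to 0.04 elsewhere. Of 6 receptors reported to bind SAA, 2 or 3 rose and 0 fell in the raised groups, among them Tlr2 (2.79 to 5.61) and Fpr2 (0.53 to 2.83), receptors of myeloid cells.

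Negative acute phase proteins are those whose plasma level falls in the acute phase. Of 5 tested, 0 fell with SP70 at 10 mg/kg, 1 at 20 mg/kg, 1 at 40 mg/kg, 1 with SP30 and 3 with SP300 at 200 mg/kg, and 0 rose. Of all genes, 5.69%, 20.9%, 28.8%, 31.3% and 18% fell in these groups, so 1 of 5 is near the share of all genes in 3 of them. Serpina6, the corticosteroid-binding globulin, was the one called in all 4 of those groups, at -0.42 to -0.56. Of 5 proteases reported to cleave SAA, Ctsl (cathepsin L) rose in the 5 raised groups by 0.26 to 0.64 and Elane (neutrophil elastase) rose at 40 mg/kg of SP70 (2.03, adjusted p = 0.00233). Ctsb (cathepsin B) fell by 0.17 and 0.33 at 20 and 40 mg/kg of SP70 and by 0.25 with SP300 at 200 mg/kg, and Ctsd (cathepsin D) fell by 0.18 at 40 mg/kg of SP70 and by 0.17 with SP300 at 200 mg/kg.

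Markers of liver cell types differed in direction in the groups where SAA rose. Some are listed elsewhere above, since Alb, Apoa1 and Ttr are hepatocyte markers, Elane is a neutrophil marker and Chil3 is a monocyte marker. Hepatocyte markers were high in every group, with a summed signal of 418315 to 558519 over 7 genes on 35 arrays, and 0 to 4 of the 7 were called lower. Of 9 Kupffer cell markers, 6, 8 and 8 fell along the SP70 doses, 7 with SP30, 8 with SP300 at 200 mg/kg and 0 with SP300 at 10 mg/kg. Their summed signal was 17655 to 27254 in control, 5241 to 11358, 847 to 2684 and 425 to 1105 along the SP70 doses, 4803 to 12234 with SP30, 543 to 768 with SP300 at 200 mg/kg and 20515 to 30223 at 10 mg/kg. On all 5 arrays of a group, 3 of the 9 were below the filter with SP70 at 20 mg/kg, 5 at 40 mg/kg and 8 with SP300 at 200 mg/kg. All 5 monocyte markers tested rose in the 5 raised groups, and 3 to 5 of 6 neutrophil markers did. On all 5 control arrays, 3 of these monocyte markers and 2 of these neutrophil markers were below the filter. Those markers were kept for testing only through treated arrays, which favours a call upward.

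The summed neutrophil signal was 1039 to 2724 in control, 17918 to 25307, 18637 to 29051 and 25374 to 60966 along the SP70 doses, 46241 to 63453 with SP30, 9948 to 24672 with SP300 at 200 mg/kg and 1156 to 1823 at 10 mg/kg. The summed monocyte signal was 2466 to 2907 in control and 4740 to 10892 over the raised groups. Of 6 endothelial markers 2, 3 and 4 fell along the SP70 doses and 4 each with SP30 and SP300 at 200 mg/kg, while 1 rose in each of these groups, and of 6 stellate cell markers 2 or 3 fell and at most 1 rose, where 18.2% to 49.3% of all genes were called. Of 6 markers of fat cells, which are known to make Saa3, Adipoq and Lep were over the filter on 0 of 35 arrays and Retn on 1, and 2 were not analysed here. Cidec, a lipid droplet protein and the 1 of the 6 tested, rose with SP70 at 40 mg/kg (2.14, adjusted p = 9.2e-07), SP30 (1.32, adjusted p = 7.07e-04) and SP300 at 200 mg/kg (1.41, adjusted p = 7.17e-04). It was 0.52 and 0.69 at the lower SP70 doses (adjusted p = 0.289 and 0.0834), and its mean signal was 89.9 in control and 457 at 40 mg/kg of SP70. Control signals of Cidec ran from 58.9 to 147, all below the filter value. Cidec was therefore kept for testing only through treated arrays, which favours a call upward. Of 3 cholangiocyte markers tested, 1 rose and 0 fell in each raised group. The 1 lymphocyte marker tested was called in no group. The part of these cell types in the SAA signals was not tested.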

How the data were processed

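Total RNA was measured on Affymetrix 430 2.0 arrays, 1 per mouse, in 7 groups of 5 named from the labels. The deposited values are intensities per probe set on a linear scale, made by the authors with MAS5, per the submitters' processing notes, which give no version. No scaling was added. Array maxima ran from 98717 to 136014. The number of arrays limits the precision.

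Values were used as log2(signal + 12.5), the pseudocount being the 10th percentile of all values (fold changes of dim genes are understated). A probe set with 1 gene was kept if 5 or more arrays exceeded the overall median (165), the brightest one stood for its gene, and 12678 genes were tested. limma 3.58.1 (R 4.3.3) fitted all 35 arrays with eBayes and a variance trend, two-sided, with Benjamini-Hochberg adjustment over genes at 0.05. Folds are ratios of geometric means. The code of the fit was checked on simulated data with independent genes and equal spread in all groups. Spreads here were unequal, so that check does not measure how the fit performs on these data. The labels say biological replicates.

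Exact and permutation tests used scipy 1.17.1, and promoters were aligned with Biopython 1.88. The members and lists were chosen with earlier results of these data known, and the 5 genes nearest a member's group means are named with list members. Of the listed genes, 130 of 157 were tested and the others were not analysed here. Replicate numbers did not pair mice. Proteins were not used here.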

Additional observations from a re-analysis of the deposited data

Results flagged for a closer look

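Within the groups of 5, 1 of 28 sets of a gene and a group held a mouse apart from the others. With SP70 at 10 mg/kg, Saa3 measured 45270 in 1 mouse against 62968 to 69969 in the other 4. Chance flags about 1 in 20 such sets.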

How the results depend on the processing

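Directions and calls of the 4 genes against control held in the 5 raised groups under every alternative run. For the number of members called, SP70 at 40 against 20 mg/kg went from 1 to 0 without the low-value filter, with quantile normalization, with arrays centred on their medians, without the variance trend, with the other probe sets and with the replicate block, which changed no other count of members. The replicate numbers did not pair mice (mean correlation of same-numbered mice -0.000671). SP70 at 40 against 10 mg/kg went from 2 to 1 with quantile normalization, SP30 against SP70 at 40 mg/kg from 0 to 1 with centring, and SP30 against SP300 at 200 mg/kg from 0 to 3 in a fit of those groups only. Leaving out 1 mouse gave 0 to 1 members for SP300 at 10 mg/kg against control and for the comparisons of SP70 at 40 with 20 mg/kg, SP30 with SP70 at 40 mg/kg and SP30 with SP300 at 200 mg/kg.

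Differences of single genes that turned sign were uncalled. With quantile normalization they were 0.046 for Saa1 and 0.022 for Saa2 (SP70 40 against 20 mg/kg), 0.023 for Saa2 (SP30 against SP70, 10 mg/kg) and -0.067 for Saa3 (SP30 against SP70 40 mg/kg). With centring they were -0.010 for Saa1 (SP70 20 against 10 mg/kg), 0.022 for Saa1 and 0.0073 for Saa2 (40 against 20 mg/kg) and 0.036 for Saa2 (SP30 against SP70, 10 mg/kg). With the mean of all probe sets Saa1 was -0.021 (20 against 10 mg/kg) and -0.056 (40 against 10 mg/kg), and with its other probe set -0.083, -0.13 and, for SP30 against SP70 at 10 mg/kg, -0.036. Leaving out 1 mouse gave -0.17 to 0.051 for Saa3 (SP300 10 mg/kg against control), -0.0072 to 0.055 for Saa1 (40 against 10 mg/kg), -0.039 to 0.010 for Saa1 and -0.059 to 0.0013 for Saa2 (40 against 20 mg/kg), and -0.075 to 0.0066 for Saa2 (SP30 against SP70).

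Of all genes, 148 were called for SP300 at 10 mg/kg against control, 87 with centring and 45 in a fit of those groups only. The count went from 1455 to 851 (SP70 40 against 20 mg/kg) and from 1959 to 3017 (SP70 40 mg/kg against SP300 200 mg/kg) with centring, and from 723 to 419 (SP30 against SP70 40 mg/kg) in a fit of those groups only. Quantile normalization moved the median of all genes by 0.13 on the log2 scale for SP70 at 40 against 10 mg/kg, and centring by -0.10 for SP70 at 40 mg/kg against SP300 at 200 mg/kg.

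In the 25 mice of the raised groups, chosen after seeing the data, the correlation of deviations was 0.586 for Saa1 and Saa3 (0.433 quantile, 0.532 centred) and 0.164 for Saa2 and Saa3 (0.266 centred). With quantile normalization it was -0.619 for Saa1 and Saa2, -0.512 for Saa1 and Saa4 and -0.076 for Saa3 and Saa4. The cause was not tested.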
